A study of Homo sapiens with 12 samples.

Results

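The 8 genes described here encode enzymes and regulators of glycogen metabolism: PGM1, UGP2, GYS1, GBE1, PPP1R3C, PPP1R3B, PYGL and PYGB. They were chosen by name from the 23106 gene symbols of each library, and all 8 were present and abundant enough to be tested. RNA was sequenced from RCC4, a human clear cell renal carcinoma line that lacks functional VHL, at 48 h after transfection, in 4 conditions with 3 replicates each, 12 libraries in all. The conditions were control siRNA (2 nM non-targeting pool), HIF1A siRNA (1 nM with 1 nM control pool), HIF2A siRNA against EPAS1 (1 nM with 1 nM control pool) and double knockdown (1 nM of each HIF pool, with no control pool). All cells were kept in high-glucose medium, and all came from this 1 line. The study's methods give no oxygen level for these cultures. HIF1A siRNA lowered PGM1, GYS1, GBE1 and PPP1R3C to between 32.7% and 59.9% of the control library with the same replicate number. HIF2A siRNA lowered none of the 8 by the test used, and the double knockdown lowered PPP1R3B and PYGL along with these 4. Over all genes tested, 1.14%, 0.0857% and 6.42% were lower in these comparisons. PPP1R3B was also below every control library with each single siRNA, without passing the test. It was at 61.5% to 74.6% of control with HIF1A siRNA and at 70.3% to 71.6% with HIF2A siRNA.

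Glycogen is the branched glucose polymer in which cells store glucose. PGM1, a phosphoglucomutase, interconverts glucose 6-phosphate and glucose 1-phosphate, UGP2 makes UDP-glucose from glucose 1-phosphate, the muscle-type glycogen synthase GYS1 adds the glucose to the chain, and the branching enzyme GBE1 creates the branch points. PPP1R3B and PPP1R3C are targeting subunits that bring protein phosphatase 1 to glycogen, where it activates synthase and inactivates phosphorylase, and the phosphorylases PYGL (liver type) and PYGB (brain type) release glucose 1-phosphate from the polymer. Clear cell renal carcinoma takes its name from cytoplasm rich in glycogen and lipid, and loss of VHL stabilises HIF-1 and HIF-2, transcription factors that bind DNA at hypoxia response elements.

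The 4 genes lowered by HIF1A siRNA are shown by the 250 bases upstream of their start in the RefSeq table for GRCh38.p14, which held 7 of the 8 genes and no entry for PPP1R3B. Capitals mark ACGTG or GCGTG, the core letters of a hypoxia response element, on either strand (on the opposite strand they read CACGT or CACGC). The window lay at chr19:48993310-48993559 on the minus strand for GYS1, at chr3:81761646-81761895 on the minus strand for GBE1, at chr10:91633072-91633321 on the minus strand for PPP1R3C and at chr1:63593161-63593410 on the plus strand for PGM1.
GYS1: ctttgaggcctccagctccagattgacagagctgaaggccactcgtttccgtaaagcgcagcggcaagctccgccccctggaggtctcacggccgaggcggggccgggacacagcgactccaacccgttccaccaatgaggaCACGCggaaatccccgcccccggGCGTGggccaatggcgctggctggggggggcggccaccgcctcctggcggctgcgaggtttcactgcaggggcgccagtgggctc
GBE1: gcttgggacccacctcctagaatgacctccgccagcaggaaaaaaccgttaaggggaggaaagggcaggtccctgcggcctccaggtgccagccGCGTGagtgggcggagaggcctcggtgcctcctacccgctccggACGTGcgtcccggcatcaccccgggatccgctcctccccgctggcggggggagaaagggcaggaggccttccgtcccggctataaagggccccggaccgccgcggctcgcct
PPP1R3C: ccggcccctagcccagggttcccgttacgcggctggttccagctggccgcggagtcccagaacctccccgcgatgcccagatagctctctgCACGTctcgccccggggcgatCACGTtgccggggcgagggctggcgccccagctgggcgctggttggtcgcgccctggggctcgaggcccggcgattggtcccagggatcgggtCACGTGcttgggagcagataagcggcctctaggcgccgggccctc
PGM1: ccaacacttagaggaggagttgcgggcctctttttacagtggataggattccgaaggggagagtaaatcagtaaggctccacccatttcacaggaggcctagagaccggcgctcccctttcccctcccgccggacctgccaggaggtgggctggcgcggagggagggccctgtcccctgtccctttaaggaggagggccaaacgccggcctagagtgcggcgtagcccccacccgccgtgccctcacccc
GYS1 and GBE1 each held 2 matches, and PPP1R3C held 4, of which 2 overlap in the palindrome CACGTG. In GBE1 the ACGTG ended 108 bases upstream of the start, and in PPP1R3C the matches lay between 159 and 40 bases upstream. The first of the 3 PGM1 starts in the table, the one shown, held 0 matches, while the second start held 3 and the third held 0. PYGL held 0, PYGB held 2, and the 2 starts of UGP2 held 2 and 1. Of all 35116 upstream windows in the table, 43.2% held at least 1 match, 19.4% held 2 or more and 6.3% held CACGTG, so these letters are common and a match is not a binding site.

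The libraries held 13263168 to 20451433 counts, so that 1 count was worth 0.0486 to 0.0752 CPM (the share of a library's counts in millionths, after scaling of library sizes). HIF1A was at 120, 58.2 and 112 CPM with control siRNA and at 15.0 to 22.2 CPM with HIF1A siRNA, and the control replicate 2 library stood apart with its low HIF1A. EPAS1 was at 138 to 171 CPM with control siRNA and at 9.16 to 11.9 CPM with HIF2A siRNA. In the double knockdown HIF1A was at 24.2 to 32.2 CPM, above its level with HIF1A siRNA alone, and EPAS1 was at 7.01 to 11.3 CPM. With HIF1A siRNA EPAS1 was at 101 to 134 CPM, below all 3 control libraries. The renal epithelial marker PAX8 (197 to 315 CPM) was present in every library. Of the markers of functioning proximal tubule, LRP2 did not exceed 0.201 CPM, SLC34A1 reached 0.445 CPM and CUBN was at 0.502 to 2.09 CPM. PTPRC, CD3E, PECAM1 and MYH1, which mark leukocytes, endothelium and skeletal muscle, had 0 counts in all 12 libraries, where 3 counts would be 0.146 to 0.226 CPM. The other markers of these cell types were low, with CD14 at up to 0.689 CPM, VWF at up to 0.390, CDH5 at up to 0.432 and CKM at up to 0.0536 CPM. Of the stromal markers, COL1A1 was at 16.6 to 71.1 CPM, PDGFRB at 0.647 to 8.58 CPM and COL1A2 at 0 to 0.0530 CPM, and the hepatocyte marker ALB was at 3.35 to 8.46 CPM. In bulk RNA, fewer cells and less RNA per cell cannot be told apart.

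Per kilobase of their reference transcript (the MANE Select transcript of GENCODE v44), the mean levels of the 8 genes in control cells ran from 16.8 to 90.4 CPM per kb. PGM1 was highest at 90.4 ± 21.5 CPM per kb (SD, n = 3), followed by PYGB at 81.6 ± 27.9, GBE1 at 52.7 ± 10.3 and GYS1 at 39.5 ± 2.48 CPM per kb. UGP2 was at 31.7 ± 0.672, PPP1R3B at 23.0 ± 1.22, PPP1R3C at 17.7 ± 4.43 and PYGL at 16.8 ± 3.72 CPM per kb. The ranges over the 3 control libraries overlapped for each neighbour from PGM1 to GYS1 and for PPP1R3C and PYGL. GYS1, UGP2 and PPP1R3B did not overlap with each other. Which transcript of each gene the cells made was not measured.

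Of the other members of the same families, the phosphoglucomutases PGM2 and PGM2L1 averaged 102 and 22.6 CPM with control siRNA, and the rest were lower. GYS2, the liver glycogen synthase, had 0 to 3 counts in a library, and PGM5 had 0 or 1. PYGM, the muscle phosphorylase, had 0 to 8 counts in a library against 310 to 969 counts of PYGL and 2297 to 8958 of PYGB. Of the phosphorylase counts of PYGL and PYGB together, PYGL made up 6.94% to 15.0%, with no allowance for transcript length. PPP1R3A, the muscle targeting subunit, had 0 counts in all 12 libraries, and PPP1R3G had 1 to 23 counts. PPP1R3D, PPP1R3E and PPP1R3F averaged 13.7, 3.52 and 6.72 CPM with control siRNA.

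**Figure D1:**
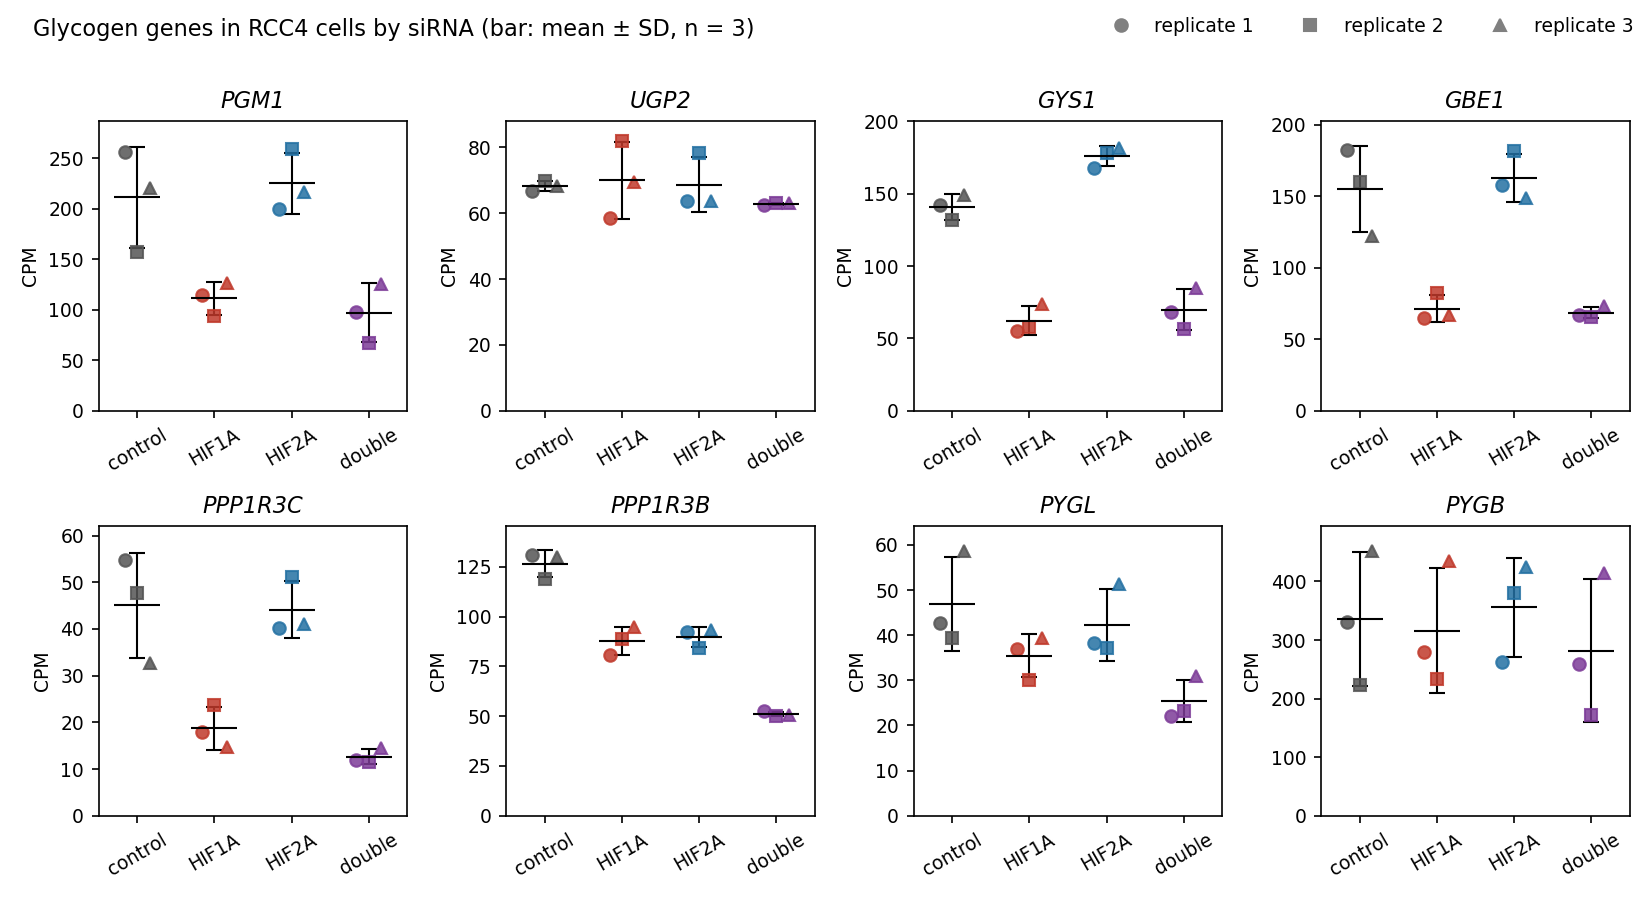
CPM (y axis, from 0) of each of the 8 glycogen genes in the 12 libraries by siRNA condition (x axis). Points are libraries, their shape gives the replicate number, and the bars are the mean ± SD of 3 libraries. GYS1, GBE1, PGM1 and PPP1R3C are low in both conditions with HIF1A siRNA, PPP1R3B is lowest in the double knockdown at 50.2 to 52.4 CPM, and UGP2 and PYGB overlap between control and each single knockdown.

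The comparison of HIF1A siRNA with control siRNA asks which genes change when HIF1A is knocked down in these cells. The arms also differ in control pool (1 against 2 nM) and in the EPAS1 level given above, and the parts of these cannot be told apart. Of the 8 glycogen genes, 4 were lower and 0 were higher at an adjusted p under 0.05 (quasi-likelihood test of edgeR, Benjamini-Hochberg adjustment over all 12830 genes tested), where 1.14% of all genes tested were lower. The 4 were the synthase, the branching enzyme, the phosphoglucomutase and the targeting subunit PPP1R3C. The median log2 fold change of the 8 was -0.72, beside 0.00 over all genes tested. The study chose a list of HIF-1-specific genes on these same libraries, and GYS1, GBE1, PGM1, PPP1R3B and PPP1R3C are on it, so their direction here is not independent evidence. The study used a looser adjusted p than here with a limit on fold change, and removed genes lowered by both siRNAs. Although PPP1R3B is on that list, its mean here was 69.5% of control with HIF1A siRNA and 70.9% with HIF2A siRNA. The model paired libraries by replicate number, as the study did. With these numbers left out, GYS1 (adjusted p = 0.011) and GBE1 (adjusted p = 0.042) alone among the 8 were called by edgeR. Over all genes tested, 40 of 12830 were then lower.

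GYS1 was at 142, 132 and 149 CPM in the control replicates 1, 2 and 3 and at 55.2, 57.7 and 73.8 CPM with HIF1A siRNA. Every knockdown library was below every control library, at 38.8%, 43.9% and 49.5% of the control with the same number. The log2 fold change was -1.19 (SE 0.12, edgeR adjusted p = 0.00016). GBE1, the branching enzyme, was at 183, 160 and 123 CPM with control siRNA and at 64.8, 82.4 and 67.2 CPM with HIF1A siRNA. The groups did not overlap, although the control libraries varied more than those of GYS1. Its log2 fold change was -1.11 (SE 0.14, edgeR adjusted p = 0.00074).

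PPP1R3C, a targeting subunit of protein phosphatase 1, was at 54.8, 47.8 and 32.7 CPM with control siRNA and at 17.9, 23.7 and 14.6 CPM with HIF1A siRNA. The groups did not overlap, and the log2 fold change was -1.27 (SE 0.17, edgeR adjusted p = 0.0011), the lowest of the 8 but within 1 SE of those of GYS1 and GBE1. Without the replicate numbers in the model its adjusted p was 0.098. PPP1R3B, the other targeting subunit measured at length, was at 131, 119 and 130 CPM with control siRNA and at 80.6, 88.6 and 94.6 CPM with HIF1A siRNA. The groups did not overlap and each pair was lower, at 61.5% to 74.6% of control. Its log2 fold change of -0.52 (SE 0.12) had an edgeR adjusted p of 0.051 and was not called, whereas DESeq2 gave 0.0042 and edgeR on all 12 libraries 0.013.

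PGM1, which supplies glucose 1-phosphate for synthesis, was at 256, 157 and 221 CPM with control siRNA and at 114, 93.9 and 126 CPM with HIF1A siRNA. The groups did not overlap, and the log2 fold change was -0.91 (SE 0.18, edgeR adjusted p = 0.023). This call depended on single libraries. The adjusted p rose to 0.055 without control replicate 1, to 0.13 without control replicate 3, and to 0.21, 0.22 and 0.058 without HIF1A siRNA replicate 1, 2 or 3, while without the replicate numbers it was 0.20. Of the exon bases annotated to PGM1, 4.83% overlap ITGB3BP on the opposite strand, and the use of strand in counting was not given in the sources used here. UGP2, the next enzyme of the pathway, was at 66.8, 69.7 and 68.3 CPM with control siRNA and at 58.7, 82.0 and 69.5 CPM with HIF1A siRNA. These values overlapped, with a log2 fold change of 0.03 and a 95% interval of -0.24 to 0.30.

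The phosphorylases were not called. PYGL was at 42.7, 39.3 and 58.8 CPM with control siRNA and at 36.9, 30.1 and 39.5 CPM with HIF1A siRNA, lower in each pair but overlapping as groups (log2 fold change -0.39, 95% interval -0.66 to -0.11, edgeR adjusted p = 0.35). PYGB varied between replicate numbers more than between conditions, at 331, 223 and 453 CPM with control siRNA and 279, 233 and 436 CPM with HIF1A siRNA. Its log2 fold change was -0.09, with an interval of -0.48 to 0.30. Without control replicate 2, the library with low HIF1A, the same 4 genes were called, with log2 fold changes of -1.21 for GYS1, -1.17 for GBE1, -1.36 for PPP1R3C and -1.09 for PGM1.

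HIF2A siRNA was compared with the same 3 control libraries, so the comparisons with control are not independent of each other. These arms also differ in control pool (1 against 2 nM). HIF1A was at 111, 116 and 136 CPM with HIF2A siRNA, beside 120, 58.2 and 112 CPM with control siRNA. The parts of these cannot be told apart. None of the 8 genes was called in either direction by edgeR, where 0.0857% of all genes tested were lower and 0 genes were higher. At an unadjusted p under 0.05 there were 2, PPP1R3B lower and GYS1 higher, beside 370 lower and 320 higher of all 12830 genes tested. DESeq2 called 1, PPP1R3B, beside 47 lower and 11 higher over all genes. PPP1R3B was at 92.0, 84.1 and 93.1 CPM with HIF2A siRNA, below all 3 control libraries and at 70.3% to 71.6% of control in every pair. Its log2 fold change was -0.49 (SE 0.12, edgeR adjusted p = 0.28, DESeq2 adjusted p = 0.033). The size was close to that after HIF1A siRNA, and the direct comparison below gives the interval of the difference. GYS1 was at 168, 178 and 181 CPM with HIF2A siRNA, above all 3 control libraries, with a log2 fold change of 0.33 (SE 0.12, edgeR adjusted p = 0.79).

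The other 6 genes overlapped between HIF2A siRNA and control siRNA, and how many of all genes tested overlap was not counted. GBE1 was at 158, 181 and 149 CPM, PPP1R3C at 40.2, 51.1 and 41.1 CPM and PGM1 at 200, 259 and 217 CPM with HIF2A siRNA. Their log2 fold changes of 0.08, 0.00 and 0.13 had 95% intervals that reached from -0.35 at the lowest to 0.51 at the highest. UGP2 was at 63.7, 78.2 and 63.8 CPM, PYGL at 38.2, 37.1 and 51.3 CPM and PYGB at 262, 380 and 425 CPM. Their intervals were -0.26 to 0.28, -0.41 to 0.14 and -0.26 to 0.53. For PGM1 and PYGB, replicate 2 alone was higher than its control, at 165% and 170%.

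HIF1A siRNA was then set directly against HIF2A siRNA, which asks whether the 2 knockdowns differ. GYS1, GBE1, PPP1R3C and PGM1 were lower with HIF1A siRNA and 0 were higher, 4 of 8 beside 1.23% of all genes tested. GYS1 had the largest difference, with a log2 fold change of -1.51 (SE 0.12, edgeR adjusted p = 1.4e-05), its libraries lying above all 3 control libraries with HIF2A siRNA and below them with HIF1A siRNA. PPP1R3C differed by -1.27, GBE1 by -1.19 and PGM1 by -1.04 on the log2 scale, with edgeR adjusted p of 0.0010, 0.00042 and 0.0081. Without the replicate numbers PPP1R3C (0.091) and PGM1 (0.10) were no longer called by edgeR, and PGM1 was also lost without HIF1A siRNA replicate 1 (0.083) or 2 (0.13). PPP1R3B differed by -0.04 with a 95% interval of -0.29 to 0.21, the narrowest of the 4 genes that were not called. UGP2, PYGL and PYGB differed by 0.02, -0.25 and -0.22, and none of these was called.

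**Figure D2:**
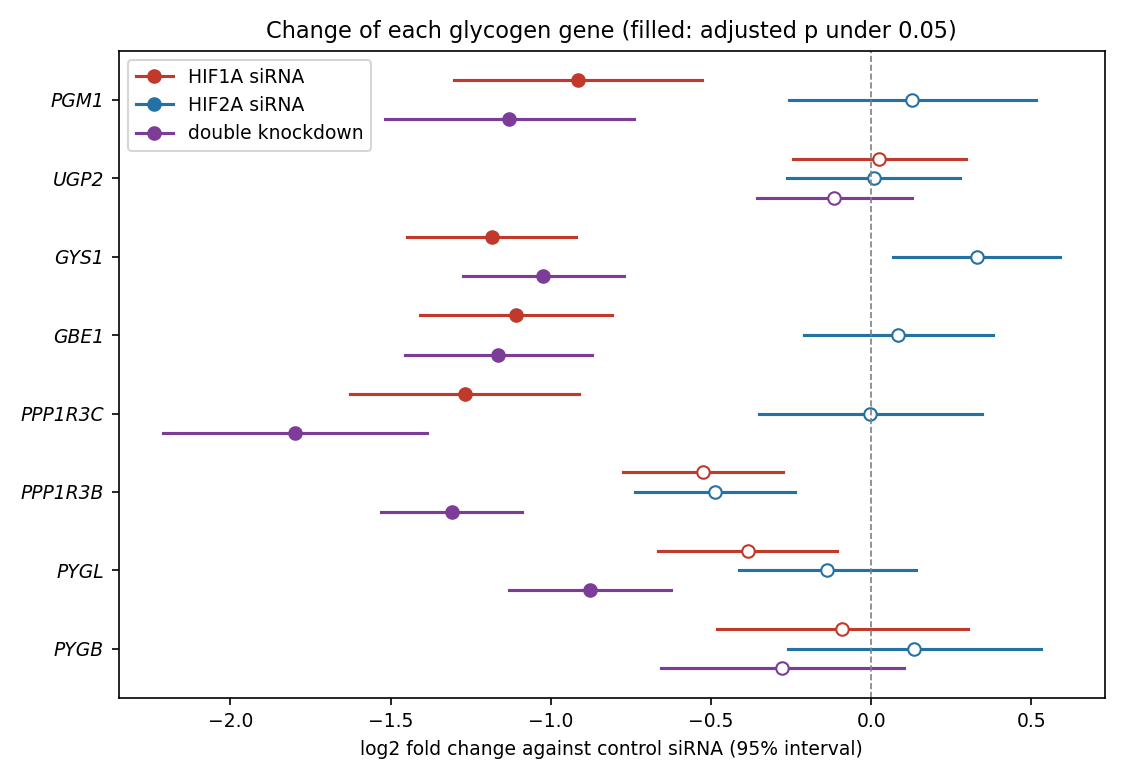
Log2 fold change against control siRNA (x axis) of each glycogen gene (y axis) with HIF1A siRNA, HIF2A siRNA and the double knockdown. Points are edgeR estimates, lines their 95% intervals, and filled points have an adjusted p under 0.05. The HIF2A siRNA points lie between -0.49 and 0.33 and none is filled, while 6 of the 8 double knockdown points are.

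With both HIF alpha subunits knocked down, 6 of the 8 genes were lower than with control siRNA and 0 were higher, beside 6.42% of the 13000 genes tested on all 12 libraries. These were the 4 genes above with PPP1R3B and PYGL. The arms also differ in control pool (0 against 2 nM). The median log2 fold change of the 8 was -1.08, beside 0.00 over all genes tested. PPP1R3C fell furthest, to 11.9, 11.5 and 14.6 CPM, with a log2 fold change of -1.80 (SE 0.19, edgeR adjusted p = 2.3e-05). PPP1R3B was next, at 52.4, 50.2 and 50.5 CPM, a spread of 1.16 CPM (SD, n = 3) around a mean of 51.0 CPM. Its 3 pairs stood at 38.8% to 42.3% of control, and the log2 fold change was -1.31 (SE 0.10, edgeR adjusted p = 1.2e-06), the smallest adjusted p of the 8.

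GBE1 was at 67.0, 65.6 and 73.0 CPM, PGM1 at 98.2, 67.5 and 126 CPM and GYS1 at 68.1, 56.6 and 85.1 CPM in the double knockdown. Each was below every control library, and the log2 fold changes were -1.16, -1.13 and -1.02. PYGL was at 22.1, 23.3 and 30.9 CPM, also below every control library, with a log2 fold change of -0.88 (SE 0.12, edgeR adjusted p = 0.00023). Its adjusted p without the replicate numbers was 0.073. PYGB was at 260, 173 and 414 CPM and UGP2 at 62.6, 63.1 and 63.0 CPM. Neither was called, with log2 fold changes of -0.28 and -0.12. PYGB was called by edgeR when only the 6 libraries compared were fitted (adjusted p = 0.028) and without HIF2A siRNA replicate 2 (0.041), which made 7 of 8. Those 2 fits called 1440 of 12553 and 1312 of 13203 genes lower, beside 834 of 13000 in the main fit. The 3 UGP2 values all lay below the 3 control values of 66.8 to 69.7 CPM.

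The double knockdown was then compared with HIF1A siRNA, both with HIF1A knocked down and the former with EPAS1 low as well. The arms also differ in control pool (0 against 1 nM) and in the HIF1A level given above, and the parts of these cannot be told apart. PPP1R3B alone of the 8 was called lower, 1 gene beside 0.969% of all genes tested, and 0 were higher. Its level fell to 65.0%, 56.7% and 53.4% of the HIF1A siRNA library with the same number, with no overlap, and the log2 fold change was -0.78 (SE 0.10, edgeR adjusted p = 0.00075). The adjusted p was 0.21 when the 4 replicate 3 libraries were left out and 0.052 without the replicate numbers. PYGL was lower in each pair, at 59.8%, 77.4% and 78.2%, with a log2 fold change of -0.49 (SE 0.12, edgeR adjusted p = 0.058). PYGL was called by DESeq2 (0.013) and when only the 6 libraries compared were fitted (0.016), and without control replicate 1 (0.048) or HIF2A siRNA replicate 2 (0.023). PPP1R3C was at -0.52 (edgeR adjusted p = 0.26) with values that did not overlap. For GYS1, GBE1 and PGM1 the log2 fold changes were 0.17, -0.05 and -0.21, with 95% intervals of -0.08 to 0.42, -0.34 to 0.24 and -0.60 to 0.17.

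Against HIF2A siRNA, again with 0 against 1 nM of control pool, 6 of the 8 genes were lower in the double knockdown and 0 were higher, beside 3.22% of all genes tested. PPP1R3C was at -1.78, GYS1 at -1.35, PGM1 at -1.26 and GBE1 at -1.24 on the log2 scale. PPP1R3B was at -0.81 (SE 0.10, edgeR adjusted p = 0.00019), close to its value of -0.78 against HIF1A siRNA. PYGL was at -0.73 (SE 0.12, edgeR adjusted p = 0.0020), which rose to 0.096 without the 4 replicate 3 libraries and to 0.28 without the replicate numbers.

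**Figure D3:**
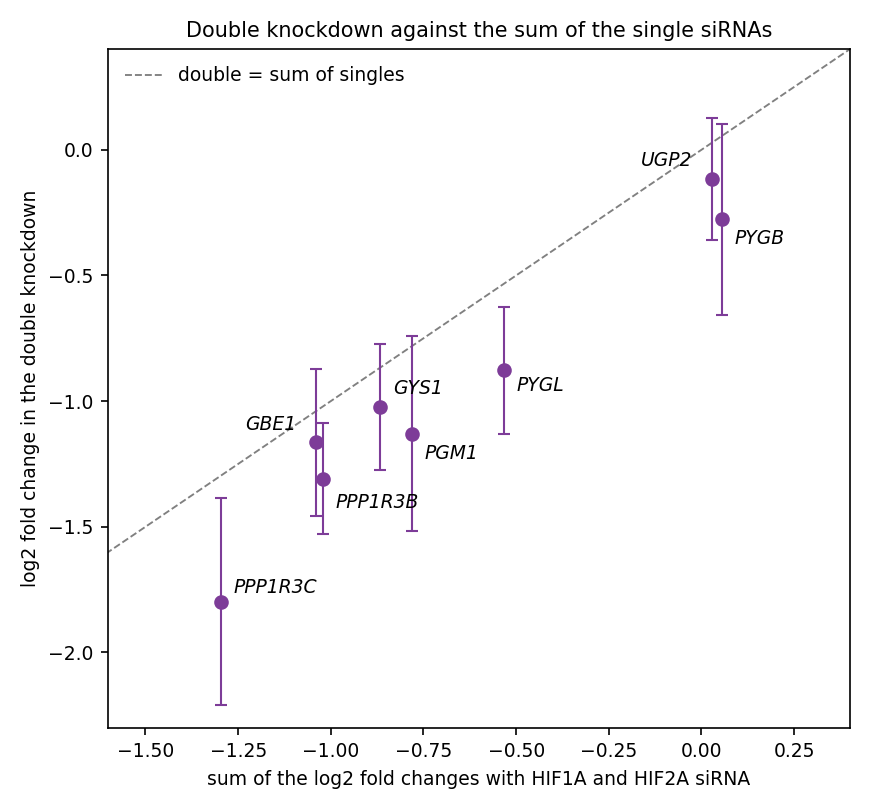
Log2 fold change of each glycogen gene in the double knockdown against control (y axis, with 95% interval) plotted against the sum of its log2 fold changes with HIF1A siRNA and with HIF2A siRNA (x axis), all from the fit of 12 libraries. The dashed line marks equality, and all 8 points lie below it, by 0.12 (GBE1) to 0.50 (PPP1R3C). None of these differences was called, and 6466 of all 13000 genes tested had a difference below 0.

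The interaction compares the double knockdown with the sum of the single effects. No gene among the 8 or among all 13000 tested was called by edgeR (0% lower). None of the 8 had an unadjusted p under 0.05, beside 318 of all 13000 genes tested. DESeq2 called none of the 8, beside 10 lower and 1 higher over all genes. For PPP1R3B the single effects summed to -1.02 and the double knockdown gave -1.31, a difference of -0.29 (95% interval -0.59 to 0.02). PYGL had the lowest unadjusted p, with a sum of -0.53, a double knockdown value of -0.88 and a difference of -0.35 (95% interval -0.70 to 0.01). The difference for PPP1R3C was -0.50 (95% interval -1.07 to 0.06) and for GYS1 -0.16 (95% interval -0.51 to 0.19). The differences of all 8 were below 0, beside 6466 of all 13000 genes tested, 14 of 16 glycolysis enzymes and 13 of 23 further glycogen genes. The differences of PGM1, UGP2, GBE1 and PYGB changed sign when replicate 2 was left out. The control siRNA amount also differed, since the double knockdown had none, and its part in these values cannot be told apart.

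Across the 12 libraries, the share of the variance of log2 CPM that lay between the siRNA conditions separated the genes. It was 98% for PPP1R3B, 94.4% for GYS1, 93.3% for GBE1, 91.6% for PPP1R3C, 81% for PGM1 and 71.1% for PYGL. For UGP2 it was 17.3% and for PYGB 11.1%, where replicate number took 44% and 66.3%. These shares were not computed for all genes, and they rest on the same libraries as the calls. Likeness between genes was described by Pearson's r over the 12 libraries after the mean of each replicate number was removed. These libraries share the 4 conditions, so r is a description without a test. GYS1 with GBE1 gave 0.975 and GBE1 with PPP1R3C gave 0.972, while PPP1R3B was closest to PYGL (0.919) and gave 0.575 with GYS1. Over all genes, the nearest to GBE1 were PGK1, PLOD2 and P4HA1 (0.984 to 0.987), to PGM1 HK1, FUT11 and TES (0.988 to 0.995), and to PPP1R3B KLHDC7A, VEGFA and FGF1 (0.984 to 0.994). The nearest to PYGL were SGCB, CSF1 and EGLN3 (0.965 to 0.970), to PPP1R3C PGM2, APAF1 and RRAGA (0.984 to 0.989), to GYS1 CCDC64B, C17orf96 and NRN1 (0.984 to 0.987), to UGP2 WDR7, NID1 and ELMO2 (0.912 to 0.955) and to PYGB TOX4, LEMD3 and LDOC1L (0.984 to 0.989).

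Of 31 further genes of glycogen metabolism, 22 were abundant enough to be tested in the fit of 9 libraries and 23 in that of 12. With HIF1A siRNA 1 of the 22 was lower and 0 were higher, with HIF2A siRNA 0 were called by edgeR (2 at an unadjusted p under 0.05, 0 by DESeq2), and in the double knockdown 3 of the 23 were lower and 0 were higher. Over all genes tested, 1.14%, 0.0857% and 6.42% were lower in these comparisons. The 2 at an unadjusted p were higher, beside 320 higher and 370 lower of all 12830 genes tested with HIF2A siRNA. The gene lowered by HIF1A siRNA was STBD1, which tethers glycogen to membranes. STBD1 was at 60.6, 48.2 and 60.6 CPM with control siRNA, at 28.8, 31.4 and 34.4 CPM with HIF1A siRNA, at 46.1, 44.8 and 48.4 CPM with HIF2A siRNA and at 19.5, 23.4 and 21.1 CPM in the double knockdown. These groups did not overlap with each other except control with HIF2A siRNA. Against control, STBD1 had a log2 fold change of -0.84 (edgeR adjusted p = 0.0050) with HIF1A siRNA, -0.27 (0.93) with HIF2A siRNA and -1.40 (5.4e-06) in the double knockdown. The call with HIF1A siRNA was lost in 3 of 19 alternatives, with edgeR adjusted p of 0.15 without the replicate 3 libraries, 0.085 without HIF1A siRNA replicate 1 and 0.084 without the replicate numbers.

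Against HIF1A siRNA alone, the double knockdown gave STBD1 a log2 fold change of -0.56 (edgeR adjusted p = 0.045), and 10 of 21 alternatives lost this call, with adjusted p of up to 0.75. PGM2, another phosphoglucomutase, was called in the double knockdown against control (-0.61, edgeR adjusted p = 0.0036), with 107, 75.9 and 123 CPM in control and 61.8, 48.6 and 93.4 CPM in the double knockdown. PGM2 was lower in each pair, but the groups overlapped. PHKA2, a regulatory subunit of phosphorylase kinase, was at 56.4, 44.9 and 53.5 CPM in control and 26.9, 28.1 and 40.3 CPM in the double knockdown (-0.72, edgeR adjusted p = 0.012), without overlap. Both calls were lost without the replicate numbers (edgeR adjusted p = 0.46 and 0.19). The PGM2 call was also lost without the replicate 1 (0.075) or replicate 3 (0.056) libraries. The PHKA2 call was lost without the replicate 1 libraries (0.19), control replicate 1 (0.070) or double knockdown replicate 1 (0.087) or 2 (0.060). GYG1, which primes glycogen, was not called in any of these comparisons. Of 16 glycolysis enzymes tested, 12 were lower with HIF1A siRNA, 0 with HIF2A siRNA and 15 in the double knockdown, beside 1.14%, 0.0857% and 6.42% of all genes tested. Their median log2 fold changes were -0.83, 0.06 and -0.93, beside 0.00, 0.01 and 0.00 over all genes tested.

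**Figure D4:**
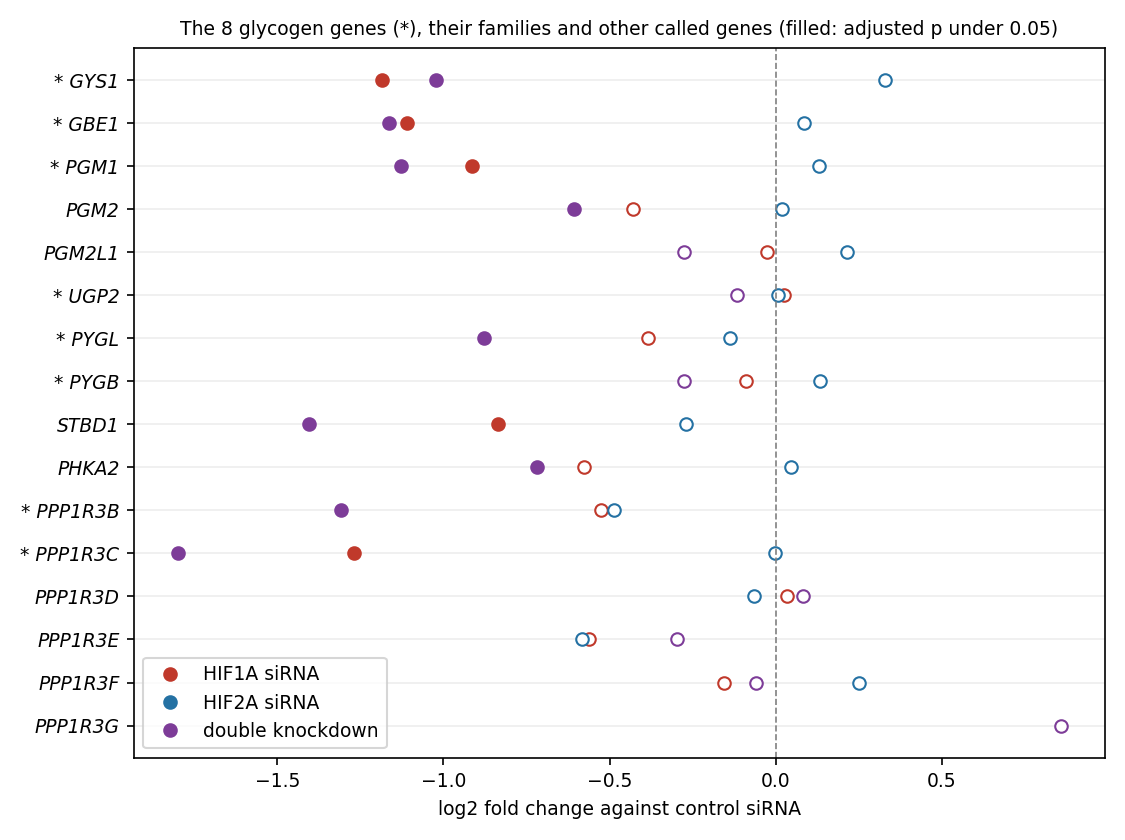
Log2 fold change against control siRNA (x axis) in the 3 knockdowns, by gene (y axis), of the 8 genes described here (asterisk), of the tested genes of their families (PGM2, PGM2L1, PPP1R3D, PPP1R3E, PPP1R3F and PPP1R3G, the last tested on 12 libraries only) and of STBD1 and PHKA2. Filled points have an adjusted p under 0.05, and all filled points lie below 0.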

How the data were processed

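Poly(A) RNA of the 12 RCC4 libraries was prepared with a directional kit. Per the labels and the study's methods, the authors trimmed reads with Trim Galore (0.3.3), aligned them to hg19 with HISAT2 (2.05), removed fragments that were not uniquely mapped with Picard (2.0.1) and counted fragments per gene with HTSeq (0.5.4p3, intersection-strict). The deposited values are raw counts per gene symbol. Whether counting used strand is not given in the sources used here, so reads of genes that overlap on opposite strands may be mixed.

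Counts were analysed with edgeR (4.0.16, R 4.3.3): TMM scaling, filterByExpr at a minimum count of 10, and a quasi-likelihood test blocked on replicate number, with p-values adjusted by Benjamini-Hochberg across every gene tested. Single knockdowns were compared on 9 libraries (12830 genes), the double knockdown and interaction on all 12 (13000 genes), and a call is an adjusted p under 0.05. DESeq2 (1.42.0), other filters and scalings, no block and leaving out libraries were alternatives. The study's own test paired conditions by biological replicate. The deviations of same-numbered libraries from their group means correlated at 0.0991 to 0.813 over 18 pairs, and those of different numbers at -0.724 to 0.527 over 36 pairs. The study calls the replicates biological without saying how they were grown. The p-values set each change against the spread left between these libraries once differences between replicate numbers are taken out. TMM factors were 0.98 to 1.02. Likeness used log2 of CPM plus 0.5. Named genes are the 8, their families, other listed glycogen genes called in any comparison, and for each of the 8 the 3 most alike genes. Values of some listed genes are not reported here. The genes and lists were chosen with earlier results of these data known.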

Additional observations from a re-analysis of the deposited data

How the results depend on the processing

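The 8 genes gave 21 calls over the comparisons, and the alternatives gave 425 values for them, of which 407 kept direction and call, 18 kept direction but lost the call and 0 changed direction. For 14 of the 21 calls no alternative lost it. With HIF1A siRNA, PGM1 lost its call in 8 of 19 alternatives against control and in 3 of 19 against HIF2A siRNA. The alternatives reuse libraries of the main fit and are not independent of it. Without the replicate block, the genes called lower were 2 of 8 with HIF1A siRNA against control, 2 against HIF2A siRNA and 0 in the double knockdown against HIF1A siRNA. Over all genes the lower calls in these comparisons were 40, 48 and 8 without the block, beside 146, 158 and 126 with it. In the double knockdown against HIF1A siRNA DESeq2 called 2, a fit of only the 6 compared libraries called 2, and leaving out libraries gave 0 to 2. Over all genes these settings called 263, 412 and 22 to 294 lower. DESeq2 called 1 of the 8 genes with HIF2A siRNA against control, beside 47 lower over all genes. The cause of these changes was not tested. The smaller fits also hold fewer libraries.

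Changes of sign were seen in genes that were not called. With HIF2A siRNA against control, UGP2 was at -4.22e-05 with at least 10 counts in every library and PPP1R3C at 0.000514 with only the 6 compared libraries. Leaving out libraries moved the log2 fold changes across 0 in 15 results. With HIF1A siRNA against control they ran from -0.079 to 0.13 for UGP2 and from -0.27 to 0.074 for PYGB. With HIF2A siRNA against control they ran from -0.21 to 0.38 for PGM1, -0.091 to 0.071 for UGP2, -0.034 to 0.25 for GBE1, -0.18 to 0.24 for PPP1R3C and -0.22 to 0.38 for PYGB. Between the single knockdowns they ran from -0.038 to 0.10 for UGP2, -0.081 to 0.044 for PPP1R3B and -0.41 to 0.10 for PYGB, and for GBE1 in the double knockdown against HIF1A siRNA from -0.20 to 0.081. The interaction ran from -0.63 to 0.10 for PGM1, -0.33 to 0.059 for UGP2, -0.36 to 0.071 for GBE1 and -0.65 to 0.13 for PYGB. The lowest count of any of the 8 in a library was 153, for PPP1R3C in the double knockdown.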
